A study of Homo sapiens with 4 samples.

Results

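The genes described here encode the proteasome: the 50 protein-coding genes of the deposited count table whose GENCODE symbol begins with PSMA, PSMB, PSMC, PSMD, PSME, PSMF or PSMG followed by a digit. They were taken by this name pattern, out of 65217 genes in the table, of which 19567 are protein-coding. The pattern was chosen with earlier results of these data known. Of the 50, 48 passed the filter on low counts and were tested. The other two, PSMA8 and PSMB11, had no count in any library. The name pattern also takes in PSMC3IP, a recombination protein that binds a proteasome ATPase, and PSME3IP1, a protein that binds the nuclear activator PSME3. Neither is a subunit.

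The cells were SEM, an established human B-cell precursor acute lymphoblastic leukaemia line with the KMT2A-AFF1 (MLL-AF4) fusion, which had been transplanted into immunodeficient mice and recovered from 2 sites. The brain group (2 libraries) is SEM cells from the central nervous system, which the labels call brain and the protocol describes as collected from the leptomeninges, the membranes around the brain. The spleen group (2 libraries) is SEM cells from the spleen. Each occasion of the experiment, rep 1 and rep 2 in the labels, gave 1 library per site, and every library pooled RNA of 5 mice aged 6 to 10 weeks when used for transplantation, and the leukaemic cells were purified on a Ficoll gradient. Before transplantation the line was grown in medium with 25 mM glucose at 21% oxygen. The 2 groups thus share the line, the fusion, the culture, the host and the purification, the mouse strain is not given in the sources used here, and a single cell line was studied. Each library is thus already a mean over mice.

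The proteasome is the protease that degrades proteins tagged with ubiquitin. Its barrel-shaped 20S core is built from outer rings of alpha subunits, which gate the entrance, and inner rings of beta subunits, of which PSMB5, PSMB6 and PSMB7 cut the substrate. The 19S cap, made of ATPases that unfold the substrate and non-ATPase subunits that bind ubiquitin and remove it, sits on the ends of the barrel. Lymphoid cells also make an immunoproteasome, in which PSMB8, PSMB9 and PSMB10 replace the constitutive catalytic subunits. Proteasome inhibitors that bind PSMB5 are used against blood cancers.

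Gene counts totalled between 26266136 and 36913437 per library, and a gene with no count could lie as high as 3 counts, or 0.0813 to 0.114 CPM (counts per 1000000 counts of the library). All 8 markers fixed for B-cell precursors were expressed, with summed levels of 2378 and 2223 CPM in brain and 1751 and 1885 CPM in spleen. The T cell markers CD3D and CD2 and the neuronal marker SNAP25 had no count, and the summed T cell, erythroid, and neural and glial markers each stayed at or under 0.381 CPM in every library, and 5 of the 31 markers had no count at all. Summed NK markers (mostly NCAM1) were 11.0 and 8.17 CPM in brain and 21.8 and 10.1 CPM in spleen, and monocyte and neutrophil markers 4.84 and 5.09 CPM and 8.37 and 9.18 CPM. Stromal and endothelial markers (mostly PECAM1) summed to 75.0 and 51.9 CPM in brain and 34.1 and 33.5 CPM in spleen. PECAM1 alone had 72.4 and 49.7 CPM in brain and 33.4 and 29.9 CPM in spleen. The share of all counts assigned to mouse transcripts reached 4.31% and 6.32% in the spleen libraries and 2.24% and 1.45% in the brain libraries. The part of these in the results below was not tested.

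Proteasome genes as a group lay lower in the cells from brain than in the cells from spleen, and no single gene passed the test. The log2 fold change of brain over spleen was below 0 for 47 of the 48 tested genes (46.7% of all tested genes were below 0), with a median of -0.38 against 0.04 for all genes, so that the median proteasome gene stood at 76.8% of its spleen level. In 42 of the 48 both brain libraries lay below both spleen libraries, and in 0 both lay above, where 26.7% of all tested genes lay below and 30.2% above. Not one of the 48 was called by edgeR's quasi-likelihood test with Benjamini-Hochberg adjustment over all 17075 genes at 0.05, where 0.387% of all genes were called lower and 1.63% higher. At an unadjusted p under 0.05 the same test gave 25 members lower and 0 higher, where all genes gave 9.94% lower and 10.7% higher. The fold changes ran from -0.67 for PSME2 to 0.01 for PSME4. Standard errors were between 0.13 and 0.20, and the smallest absolute log2 fold change of any gene called in the whole table was 0.73, above that of every proteasome gene. In libraries of many cells, fewer cells that express a gene and less of its RNA per cell cannot be told apart.

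**Figure D1:**
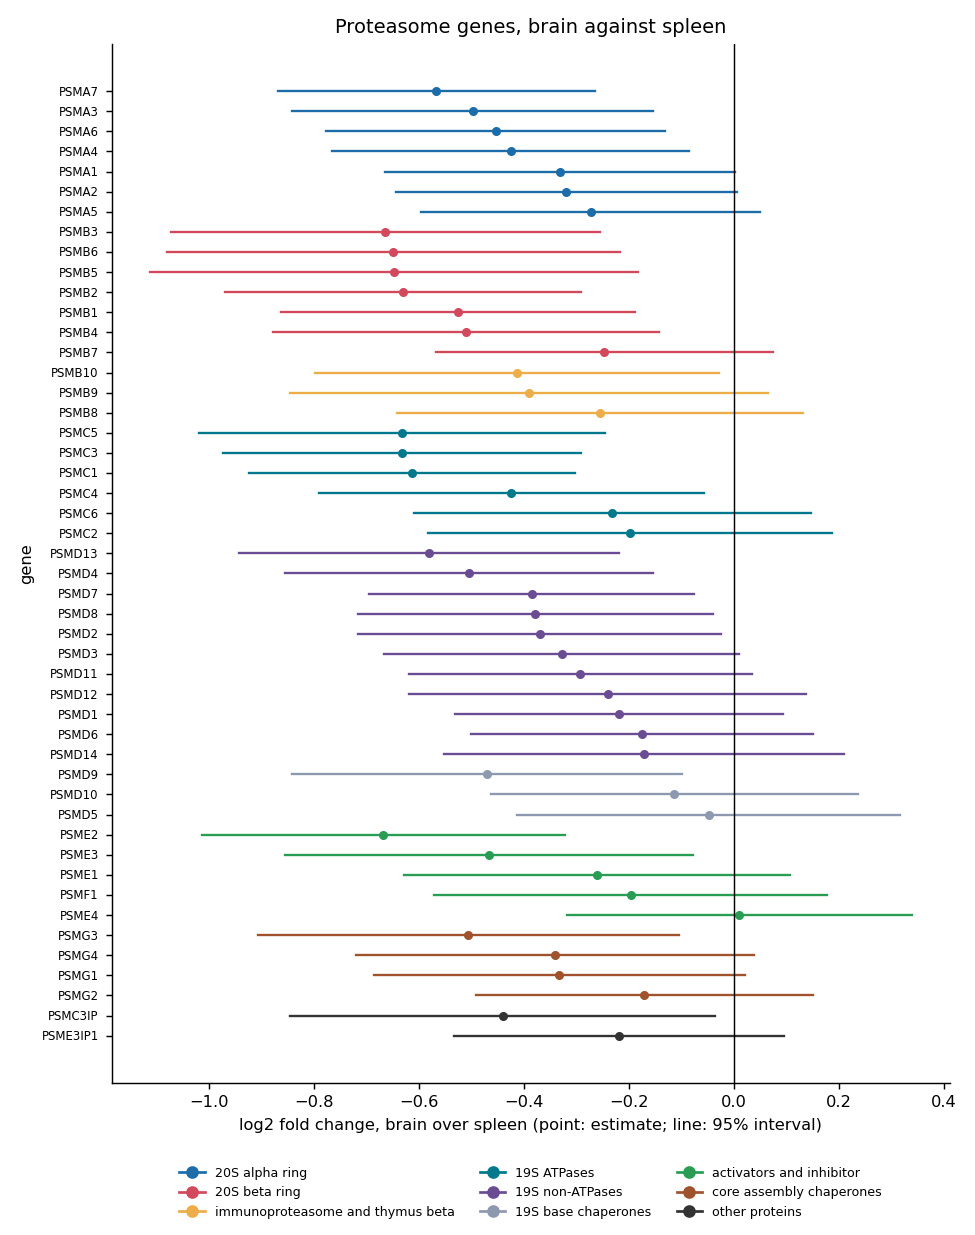
Log2 fold change of brain over spleen (x axis) for each of the 48 tested proteasome genes (y axis), with the point as the estimate, the line as its 95% interval and colour for the structural class. All points but that of PSME4 lie left of 0, and in 25 genes the whole interval does.

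The shift was present in both spleen libraries and larger in one. For each gene the deviation from its mean over the 4 libraries was taken on log2(CPM + 0.5). The median deviation over the 48 genes was -0.16 in brain replicate 1, -0.20 in brain replicate 2, 0.12 in spleen replicate 1 and 0.30 in spleen replicate 2. The brain libraries thus lay close together, while the spleen libraries stood apart from each other by more than the brain libraries did. Within the first occasion the median difference of brain from spleen was -0.31, with 3 of 48 genes higher in brain, and within the second it was -0.48, with 2 of 48 higher.

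**Figure D2:**
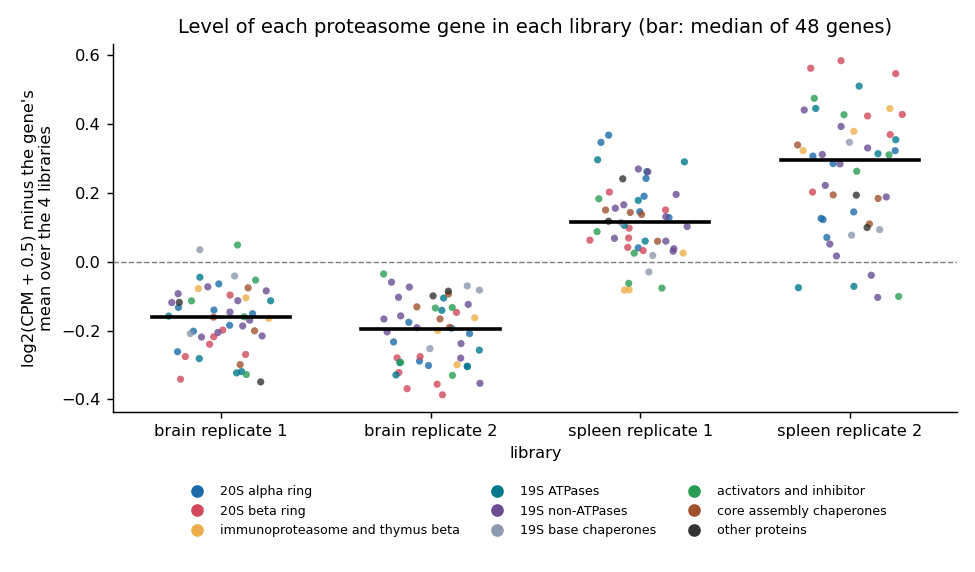
Deviation of each of the 48 proteasome genes from its own mean over the 4 libraries (y axis, log2 CPM with 0.5 added), by library (x axis); points are genes, coloured by class, and the bar is the median. The bars lie at -0.16 and -0.20 in the brain libraries and at 0.12 and 0.30 in the spleen libraries.

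How many members pass depends on how the spread is modelled. With the replicate number as a block, 10 members were called lower (edgeR, adjusted p under 0.05, 3.37% of all genes lower): PSMA7, PSMB2, PSMB3, PSMB5, PSMB6, PSMC1, PSMC3, PSMC5, PSMD13 and PSME2. DESeq2 without a block called 6 lower (2.33% of all genes), all among those 10, and DESeq2 with the block called 0 (0.592%). The block leaves fewer degrees of freedom to estimate spread from the 4 libraries. Across genes, deviations of same-numbered libraries correlated at 0.0269 (Pearson) and -0.0149 (Spearman). Whether same-numbered libraries share an effect was not tested. Leaving out spleen replicate 1 gave 39 (19% of all genes lower) and leaving out spleen replicate 2 gave 25 (7.63%), each with the lone spleen library assumed to vary as the brain pair does, while leaving out either brain library gave 0 (0.596% and 0.64%). Without a filter on low counts 16 were called lower (2.47%). With other scale factors (0.445%), a stricter filter (0.0737%), protein-coding genes alone (0.131%) or transcript sums (0.333%), 0 were.

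The 20S alpha ring genes that were tested, PSMA1 to PSMA7, had log2 fold changes between -0.57 and -0.27, with a median of -0.43. All 7 were lower in both brain libraries, and 0 passed the test. PSMA7 (chr20:62136733-62143440, minus strand, GRCh38, like all gene positions here from GENCODE release 44) encodes one of the alpha subunits. Its level came to 199.9 and 194 CPM in brain and 284 and 299.9 CPM in spleen. The pairs are far apart relative to the gap within each, and the fold change was -0.57 ± 0.13 (SE), with adjusted p = 0.0741 by edgeR and 0.0384 with the replicate block. PSMA6, the other alpha gene of highest level, stood at 230.45 and 208 CPM in brain and 283 and 317 CPM in spleen, a log2 fold change of -0.45 (95% interval -0.78 to -0.13, adjusted p = 0.134 by edgeR). PSMA8, the form of the alpha ring used in the testis, had a count of 0 in every library.

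The constitutive beta ring had the lowest median log2 fold change of any class, at -0.63, with a median level in brain of 64.6% of that in spleen. That rank came from replicate 2. Between the replicate 1 libraries its median difference was -0.35, against -0.42 for the 19S ATPases. Between those of replicate 2 the medians were -0.81 and -0.63. Differences between classes were not tested. All 7 genes were lower in both brain libraries, between -0.66 for PSMB3 and -0.25 for PSMB7. With the block 4 of them were called lower. PSMB3 (chr17:38752741-38764225, plus strand), a structural subunit without proteolytic activity, had 98.2 and 92.0 CPM in brain and 127 and 174 CPM in spleen. The groups did not overlap, and spleen replicate 2 lay well above spleen replicate 1. The log2 fold change was -0.66 ± 0.18 (SE), with adjusted p = 0.102 by edgeR and 0.0160 with the block. PSMB2 (chr1:35599541-35641526), another structural subunit, had 142 and 128 CPM in brain and 193 and 225 CPM in spleen, and -0.63 ± 0.15 (adjusted p = 0.0761 by edgeR and 0.0180 with the block). PSMB4, a structural subunit of high level, had 164 and 157 CPM in brain and 200.1 and 257 CPM in spleen, with a log2 fold change of -0.51 (95% interval -0.88 to -0.14, adjusted p = 0.137 by edgeR).

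The promoter of PSMB3 is shown because this gene had the lowest fold change among the core subunits and its promoter holds matches to the motifs of factors known to act on proteasome genes. The sequence is the 250 bases before the gene's start in RefSeq (GRCh38.p14, chr17:38752491-38752740, plus strand), 5′ to 3′. The capitals mark TGANNNNGC, the core of the antioxidant response element read by NFE2L1 and NFE2L2 with MAF proteins, and CCAAT, the box read by NF-Y.

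PSMB3 promoter: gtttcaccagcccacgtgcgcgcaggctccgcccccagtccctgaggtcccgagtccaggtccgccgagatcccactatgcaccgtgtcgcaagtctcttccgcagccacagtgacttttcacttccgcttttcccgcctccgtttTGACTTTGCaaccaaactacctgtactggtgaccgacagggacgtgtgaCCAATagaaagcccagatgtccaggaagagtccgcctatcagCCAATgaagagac

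The first capital stretch is TGACTTTGC, 104 to 96 bases before the start, and the CCAAT boxes lie 55 to 51 and 13 to 9 bases before it. RefSeq start sites can differ from the ends of the GENCODE genes given here. Promoter windows were found in the RefSeq table for 44 of the 50 genes, with 55 start sites. TGANNNNGC, searched on both strands, was present in 56.4% of these windows, in 26 of the 44 genes, against 35.2% of all 35116 windows of the same length. CCAAT, searched in the same way, was present in 41.8% of them, in 21 genes, against 32.0% of all windows. Matches of different motifs may overlap. A match is a description of letters in the window, and binding was not measured.

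The genes of the 3 constitutive catalytic subunits did not lie alike. PSMB5 (chr14:23016543-23035230), which cuts after hydrophobic residues, had 50.9 and 53.3 CPM in brain and 66.1 and 97.2 CPM in spleen. The groups did not overlap, and the 2 spleen libraries differed by more than spleen replicate 1 differed from brain. Its log2 fold change was -0.65 ± 0.20 (SE), with adjusted p = 0.137 by edgeR and 0.0327 with the block. PSMB6 (chr17:4796144-4798502), which cuts after acidic residues, had 85.6 and 80.5 CPM in brain and 108 and 153 CPM in spleen, the same arrangement, and -0.65 ± 0.19 (adjusted p = 0.118 by edgeR and 0.0218 with the block). PSMB7, which cuts after basic residues, had 121 and 117 CPM in brain and 133 and 149 CPM in spleen. Its fold change of -0.25 had a 95% interval of -0.57 to 0.07 (adjusted p = 0.349 by edgeR) and takes in 0. The difference between PSMB7 and the other two was not tested.

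The immunoproteasome genes lay between -0.25 and -0.41, and 0 of the 3 passed with or without the block. PSMB8 (chr6:32840717-32844679), the immune counterpart of PSMB5, had 162 and 153 CPM in brain and 162 and 215 CPM in spleen. Brain replicate 1 lay just above spleen replicate 1, so the groups overlapped, and the log2 fold change was -0.25 (95% interval -0.64 to 0.13, adjusted p = 0.416 by edgeR). PSMB9 (chr6:32844136-32859851), the counterpart of PSMB6, had 50.1 and 48.9 CPM in brain and 53.1 and 76.7 CPM in spleen, with -0.39 (95% interval -0.85 to 0.06). In PSMB9 spleen replicate 1 lay near the brain pair and spleen replicate 2 alone was high. PSMB10 (chr16:67934506-67936864), the counterpart of PSMB7, had 129 and 113 CPM in brain and 142 and 181 CPM in spleen, with -0.41 (95% interval -0.80 to -0.03, adjusted p = 0.215 by edgeR). PSMB11, the beta subunit of the thymus, had a count of 0 in every library. PSMB8 and PSMB9 overlap by 544 bases on opposite strands, and TAP1 overlaps PSMB9 by 8608 bases on the strand opposite to it. Whether the counting used strand is not given in the sources used here, so reads in the shared stretches may have been split.

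Levels of different genes can be compared only per length, for which the deposited TPM (a transcript level per length, scaled over human and mouse transcripts together) served. PSMB8 stood above PSMB5, at 216 and 215 TPM in brain and 204 and 241 TPM in spleen against 66.3 and 76.3 TPM and 84.0 and 113 TPM. The ratio of PSMB8 to PSMB5 came to 3.26 and 2.82 in brain and 2.42 and 2.13 in spleen, a log2 difference of 0.42. The ratio of PSMB9 to PSMB6 stood at 0.648 and 0.660 in brain and 0.540 and 0.550 in spleen, a difference of 0.26. The ratio of PSMB10 to PSMB7 came to 0.906 and 0.825 in brain and 0.972 and 1.16 in spleen, a difference of -0.30 in the other direction. So the immune form made up more of the RNA of the first 2 pairs in brain, with no overlap between groups, and less of the third. The log2 fold changes of PSMB8 and PSMB9 were themselves below 0, at -0.25 and -0.39, and those of PSMB5 and PSMB6 lower still, at -0.65 each. Which subunits are built into proteasomes was not measured. With CPM in place of TPM the ratio of PSMB8 to PSMB5 still separated the sites, at 3.19 and 2.87 against 2.45 and 2.21. On the same scale the ratio of PSMB10 to PSMB7 came to 1.07 and 0.967 in brain and 1.06 and 1.22 in spleen, and the groups overlapped. For each of the 3 ratios the exact two-sided permutation test over the 4 libraries gave p = 0.333 (0.333 after Benjamini-Hochberg adjustment over the 3), the smallest that 2 libraries against 2 can give, so this test cannot fall under 0.05 with these libraries.

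**Figure D3:**
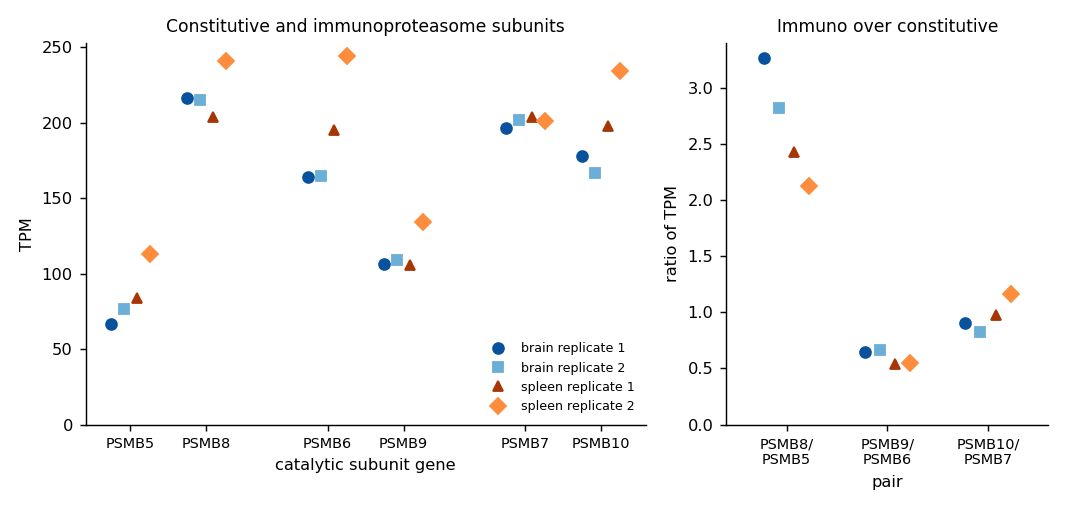
Left, TPM (y axis) of the constitutive and immune catalytic subunit genes (x axis, paired) in each of the 4 libraries. Right, the ratio of immune to constitutive TPM in each pair, where PSMB8 over PSMB5 is 2.82 to 3.26 in brain and 2.13 to 2.42 in spleen.

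Among the 19S ATPases, the ring that unfolds substrates, the median was -0.52. All 6 genes were below 0, and 5 of the 6 were lower in both brain libraries. PSMC3 (chr11:47418769-47426473) had 129 and 130.3 CPM in brain and 182 and 219.6 CPM in spleen, a log2 fold change of -0.63 ± 0.15 (SE), with adjusted p = 0.0761 by edgeR and 0.0187 with the block. PSMC5 (chr17:63827152-63832026) had 116 and 118 CPM in brain and 156 and 207 CPM in spleen, and -0.63 ± 0.17 (adjusted p = 0.0996 by edgeR and 0.0213 with the block). Both separate the sites without overlap, with the higher value in spleen replicate 2. The others were PSMC4 at -0.42, PSMC6 at -0.23 and PSMC2 at -0.20. PSMC2 was the exception to the order of libraries: at 81.5 and 64.4 CPM in spleen its 2 libraries straddled the brain value of 65.8 CPM in replicate 1.

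PSMC1 (chr14:90256527-90275429, plus strand) had the smallest adjusted p of all members. It had 93.4 and 90.4 CPM in brain and 139.7 and 141 CPM in spleen, so that both pairs were tight and did not overlap. The log2 fold change was -0.61 ± 0.13 (SE; 95% interval -0.92 to -0.30), with adjusted p = 0.0667 by edgeR and 0.0244 with the block. PSMC1 also has a processed pseudogene on chromosome 3, PSMC1P1, a near copy of its messenger RNA, and that one went the other way. PSMC1P1 had 393 and 456 counts in brain and 187 and 120 in spleen, which are 10.6 and 13.4 CPM and 5.67 and 4.75 CPM. It was called higher in brain, at 1.20 ± 0.22 (adjusted p = 0.0431 by edgeR and 0.000349 with the block). It did not pass with a stricter filter (adjusted p = 0.0874 by edgeR) or without brain replicate 2 (0.133). The estimated counts divide reads between near copies, so both values are uncertain. Summed with its pseudogenes, PSMC1 stood at 107 and 106 CPM in brain and 148 and 149 CPM in spleen, a log2 difference of -0.48 against -0.61 for PSMC1 alone. Of the 44 pseudogenes named for members, 20 had no count in any library, and 2 (PSMC1P1 and PSMC1P5) had more than 10 counts in any.

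**Figure D4:**
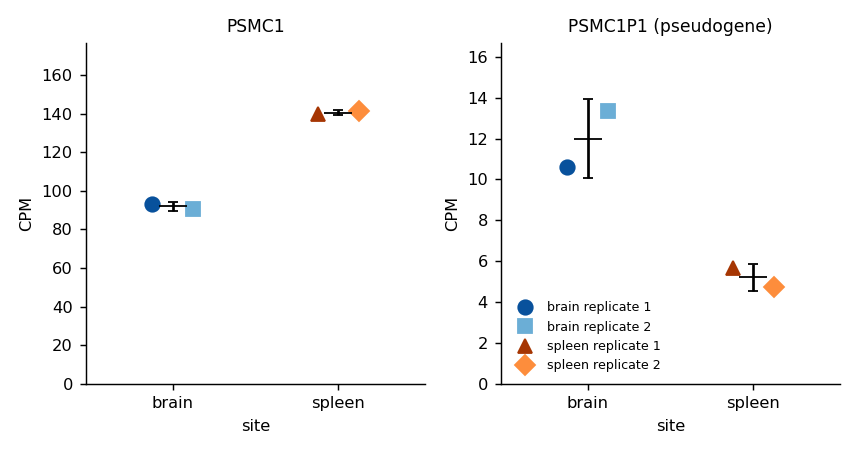
CPM (y axis) of PSMC1, left, and of its processed pseudogene PSMC1P1, right, in the brain and spleen libraries (x axis); points are libraries, and the cross bar with whiskers is the mean ± SD of the 2. PSMC1 is at 93.4 and 90.4 in brain and 139.7 and 141 in spleen, and PSMC1P1 is higher in both brain libraries than in both spleen libraries.

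The 11 non-ATPase subunits of the cap, which recognise ubiquitin and hold the lid together, had a median of -0.33 and a range of -0.58 to -0.17. Of these, 10 were lower in both brain libraries. PSMD13 (chr11:236966-252984), a lid subunit, had 131 and 119 CPM in brain and 167 and 207 CPM in spleen. Its log2 fold change was -0.58 ± 0.16 (SE), with adjusted p = 0.105 by edgeR and 0.0368 with the block, the 1 gene of this class called with the block. PSMD2, a scaffold of the base that docks ubiquitin carriers, had 189.5 and 187 CPM in brain and 218 and 268 CPM in spleen, and -0.37 (95% interval -0.72 to -0.02). PSMD8, a lid subunit, had 123 and 126 CPM in brain and 148 and 176 CPM in spleen, and -0.38 (95% interval -0.72 to -0.04). For both, spleen replicate 2 was the highest library. PSMD4, a ubiquitin receptor, lay at -0.50, and PSMD14, which cuts ubiquitin chains off the substrate, at -0.17, where its spleen libraries at 108 and 83.8 CPM enclosed both brain values.

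The chaperones that put the base of the cap together had a median of -0.11, which became -0.24 after the removal of GC content and length described below. PSMD5 had 34.3 and 31.6 CPM in brain and 32.8 and 35.3 CPM in spleen, and -0.05 (95% interval -0.41 to 0.32, adjusted p = 0.891 by edgeR). PSMD10, also known as gankyrin, had 41.0 and 40.2 CPM in brain and 42.8 and 45.1 CPM in spleen, and -0.11 (95% interval -0.46 to 0.24). PSMD9 had 39.1 and 37.9 CPM in brain, 49.0 and 57.7 CPM in spleen and -0.47 (95% interval -0.84 to -0.10, adjusted p = 0.160 by edgeR). For PSMD5 the libraries interleave, and the sign turns when 1 library is left out. The chaperones of the core, PSMG1 to PSMG4, were each lower in both brain libraries, with a median of -0.34. PSMG1 had 31.1 and 31.0 CPM in brain and 38.6 and 39.7 CPM in spleen (-0.33), and PSMG2, its partner, 74.4 and 73.5 CPM and 81.7 and 84.7 CPM (-0.17). PSMG3 at -0.51 was the lowest of the 4.

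The activators, which open the core from its end in place of the 19S cap, went apart. PSME1 and PSME2 form one ring together, are induced by interferon gamma, and lie 4394 bases apart on opposite strands of chromosome 14. PSME2 (chr14:24143362-24147570, minus strand) had the lowest fold change of all members. It had 139 and 139 CPM in brain and 199 and 244 CPM in spleen, a log2 fold change of -0.67 ± 0.15 (SE; 95% interval -1.01 to -0.32), which puts brain at 63.0% of spleen, with adjusted p = 0.0707 by edgeR and 0.0120 with the block. PSME1 (chr14:24136163-24138967, plus strand) had 253 and 249.6 CPM in brain and 262 and 340.0 CPM in spleen, and -0.26 (95% interval -0.63 to 0.11, adjusted p = 0.387 by edgeR). PSME1 in spleen replicate 1 was thus close to the brain pair, where PSME2 in the same library was well above it. PSME3, which forms the nuclear activator, lay at -0.47 and PSMF1, an inhibitor of the core, at -0.20. PSME4 (chr2:53864069-53970993), a large nuclear activator made of a single chain, was the only tested member above 0. It had 136 and 128 CPM in brain and 139 and 122 CPM in spleen, with 0.01 (95% interval -0.32 to 0.34), and its libraries interleave; the value is slightly below 0 with other scale factors.

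PSME2 and PSMB10 share a further promoter feature, shown because genes that respond to interferon often carry it. The motif is GAAA and another GAAA with any pair of bases between them. Searched on both strands of the 250 bases before the start, it was present in 9.09% of the 55 windows, in 5 of the 44 genes, against 3.02% of all windows. Each match is printed with its surroundings, 30 bases in all, from RefSeq GRCh38.p14, 5′ to 3′ on the strand of the match, with the match in capitals.

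PSME2: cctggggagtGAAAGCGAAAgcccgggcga
PSMB10: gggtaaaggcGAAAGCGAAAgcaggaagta
PSMG4: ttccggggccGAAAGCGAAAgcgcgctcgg
PSMB4: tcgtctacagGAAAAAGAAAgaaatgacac
PSMA4: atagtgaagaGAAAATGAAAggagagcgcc

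PSME2, PSMB10 and PSMG4 carry the same 10 letters, GAAAGCGAAA, within 33 bases of the start, whereas the matches of PSMB4 and PSMA4 differ in the middle and lie farther out. The coordinates are chr14:24146619-24146648 for PSME2, chr16:67936852-67936881 for PSMB10 (both minus strand), chr6:3258904-3258933 for PSMG4, chr1:151399495-151399524 for PSMB4 and chr15:78540155-78540184 for PSMA4 (plus strand). The log2 fold changes of these 5 genes were -0.67, -0.41, -0.34, -0.51 and -0.43. PSMB8, PSMB9 and PSME1 have no match of these letters in this window.

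PSMC3IP and PSME3IP1, which match by name alone, lay at -0.44 and -0.22. PSMC3IP had 15.3 and 18.5 CPM in brain and 23.3 and 22.5 CPM in spleen, and PSME3IP1 84.2 and 85.3 CPM and 99.2 and 98.0 CPM. Both were lower in both brain libraries, and neither passed the test.

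Levels per length were summed by class. The alpha ring summed to 1549 and 1541 TPM in brain and 1909 and 1710 TPM in spleen, and the constitutive beta ring to 1217 and 1229 TPM and 1427 and 1623 TPM. Both rings were lower in both brain libraries, and within spleen the alpha sum was higher in replicate 1 and the beta sum in replicate 2. The 3 expressed immunoproteasome genes summed to 500.5 and 490.1 TPM in brain and 507 and 609 TPM in spleen. The 14 constitutive core genes PSMA1 to PSMA7 and PSMB1 to PSMB7 summed to 2765 and 2771 TPM in brain and to 3336 and 3333 TPM in spleen. The near equality within spleen comes from the opposite order of the 2 rings there. The log2 difference between sites was -0.27 (exact two-sided permutation p = 0.333, the smallest possible). All 50 genes summed to 6260 and 6394 TPM in brain and 7245 and 7321 TPM in spleen (-0.20). By class, the mean TPM per gene with counts in brain was 221 for the alpha ring (7 genes, without PSMA8), 175 for the constitutive beta ring, 97.2 for the ATPases, 100.5 for the non-ATPases, 181 for the activators and inhibitor, 60.0 for the core chaperones and 36.5 for the base chaperones. In the same order the spleen means were 259, 218, 115, 109, 204, 63.6 and 38.0. The TPM of the ATPases is incomplete, since the gene count of PSMC6 exceeds the sum of its transcripts under the annotation used here by up to 2444 counts.

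The size of the difference depends on the scale. On TPM the median gene of the whole table was higher in brain by 0.26 on the log2 scale, against 0.04 on CPM with TMM factors. On TPM the proteasome median was -0.18, with 39 of 48 genes below 0, where 28.6% of all genes were. On the same scale 27 of 48 were lower in both brain libraries and 3 higher in both, where 13.8% and 46.6% of all genes were. The 3 were PSMD5, PSMD10 and PSMF1, which lay below 0 on CPM. Relative to the median of all genes the shift was -0.43 on TPM and -0.42 on CPM, and 47 and 48 of the 48 genes lay below that median.

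Base composition moved with part of the pattern. The main transcript of a gene was taken as the one of highest mean TPM, which is not always the one with the most counts. For PSME4 it had 1422 bases, while a transcript of 7250 bases held 69.7% to 73.5% of its counts. Across the 48 genes the GC content of the main transcript correlated with the difference between the 2 spleen libraries (Pearson r = 0.73, Spearman rho = 0.72). It also correlated with the fold change of brain over spleen (r = -0.47, rho = -0.47). These are descriptions across genes that share the same libraries. Over all genes with a value, the correlation of GC content with the spleen difference was 0.50 (Pearson). With the fold change of brain over spleen it was -0.15 (Pearson) and -0.25 (Spearman), weaker than in the members. Of the 24 members with the higher GC content, at or above 49.0%, all 24 were higher in spleen replicate 2 than in spleen replicate 1, against 11 of the 24 below. The median fold change was -0.45 in the first set and -0.30 in the second.

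After a trend with GC content and length had been removed from each library, the medians of these 2 sets were -0.29 and -0.30, and that of all 48 genes -0.30, with 47 of 48 below 0 (47.5% of all genes were). The beta ring stayed the lowest class, at -0.45 in place of -0.63, the immunoproteasome genes lay at -0.18 in place of -0.39, and the activators and inhibitor at -0.09 in place of -0.26. The base chaperones moved the other way, to -0.24 from -0.11, so the order of the classes near 0 depends on this step. With this removal 3 members, PSMB2, PSMC1 and PSME2, were called lower by edgeR (0.837% of all genes lower), and with the block added PSMB2 alone (1.04%).

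**Figure D5:**
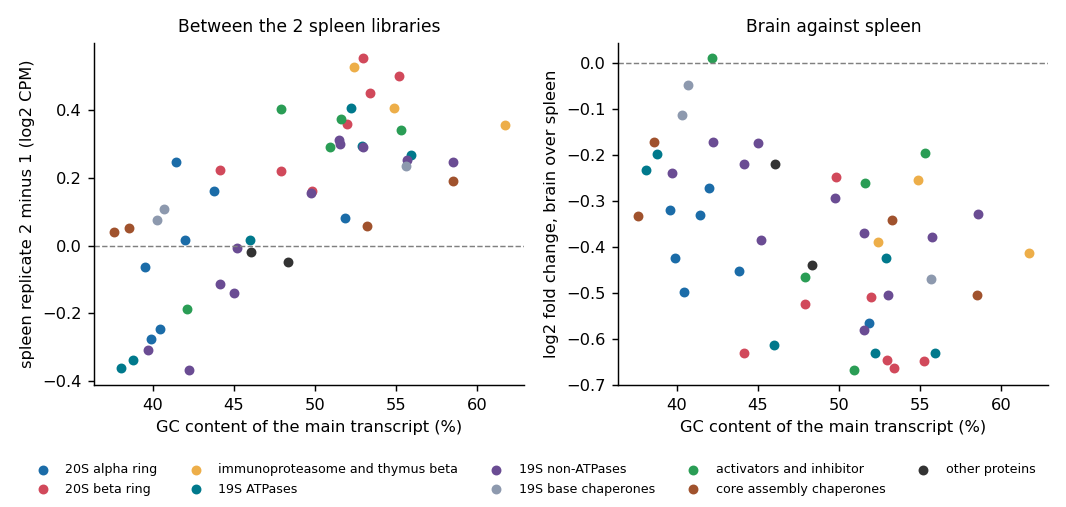
GC content of the main transcript in percent (x axes) of the 48 proteasome genes against the difference of spleen replicate 2 from spleen replicate 1 (left, log2 CPM) and against the log2 fold change of brain over spleen (right); points are genes, coloured by class. The left panel climbs with GC content (r = 0.73) and the right one descends (r = -0.47), with members of low GC content also below 0.

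Pooled over the members, the kinds of transcript behind the gene counts had close shares at both sites, while single genes often separated. Protein-coding transcripts held 87.0% and 86.5% of the members' pooled counts in brain and 87.6% and 87.9% in spleen. Some genes lay far below this pooled share under the annotation used here. As site means, the coding share in brain and spleen was 4.19% and 3.03% for PSMA5, 10.3% and 7.73% for PSMD13, and 12.6% and 16.2% for PSMD9. The counts of these genes were thus mostly assigned to transcripts of other types. Transcripts with a retained intron held 4.04% and 4.84% in brain and 3.95% and 3.38% in spleen. For 17 of the 48 genes the retained-intron share was higher in both brain libraries and for 4 lower in both, where 15.9% and 8.56% of the 12910 protein-coding genes were. The share of protein-coding transcripts was lower in both brain libraries for 22 members and higher for 6 (23.6% and 14.1% of those genes). The share of the transcript with the highest mean count was lower in both for 23 and higher for 9 (29.1% and 17.7%). These shares were not tested. PSMB10 was one of the 4, at 8.71% and 9.61% in brain and 13.6% and 17.2% in spleen, so that 90.8% and 84.6% of its counts, as site means, came from coding transcripts.

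Other genes of the ubiquitin and proteasome system were read from a list of 37, all of them tested. By edgeR 0 were called in either direction, 26 lay below 0, and their median was -0.12. POMP, which matures the core, had 85.1 and 78.6 CPM in brain and 108 and 102 CPM in spleen (-0.36, adjusted p = 0.204 by edgeR). ADRM1, a ubiquitin receptor of the cap, had 90.5 and 90.5 CPM in brain and 118 and 144 CPM in spleen (-0.54, adjusted p = 0.116). SEM1, a small lid subunit that shares only its name with the cell line, had 57.9 and 54.3 CPM in brain and 90.7 and 73.5 CPM in spleen (-0.55, adjusted p = 0.124). These proteasome parts outside the name pattern were lower in both brain libraries, as most members were. Not all partners were. The 12 partner and maturation genes of the list, these included, had a median of -0.18, with 10 below 0. UCHL5 (0.12) and ECPAS (0.10) lay above 0, and the groups overlapped for both and for TXNL1, AKIRIN2 and ZFAND5. NFE2L1, the factor that raises proteasome genes when the protease is inhibited, had 110.3 and 103 CPM in brain and 95.1 and 102 CPM in spleen (0.12), and DDI2, the protease that releases it, lay at 0.11. The 1 gene of the list that passed with the block was MAFF, a small partner of NFE2L1, which rose from 1.73 and 1.70 CPM in spleen to 4.00 and 4.01 CPM in brain (log2 fold change 1.22, adjusted p = 0.0630 by edgeR and 0.00524 with the block).

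The list of 21 interferon and antigen presentation genes, which includes PSMB8 to PSMB10, PSME1 and PSME2, had 0 called and a median of -0.08. With the block HLA-E and GBP2 were called higher and PSME2 lower. TAP1, the neighbour of PSMB9 that carries peptides to MHC class I, had 55.8 and 58.0 CPM in brain and 35.2 and 51.8 CPM in spleen (0.39, adjusted p = 0.320 by edgeR), on the other side of 0 from PSMB9. IRF1, a factor that switches on the immune subunits, lay at -0.16 and NLRC5, which drives MHC class I genes, at -0.11, each with overlapping groups.

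Ribosomal protein genes served for comparison. The 78 mitochondrial ribosomal protein genes had a median of -0.41, with 73 below 0, 65 lower in both brain libraries, 0 called and 13 called lower with the block. The 83 cytosolic ribosomal protein genes tested, like the members mostly short and abundant, had a median of -0.01, with 45 below 0 and 9 lower in both brain libraries. That median averages opposite shifts, 0.18 between the libraries of replicate 1 (70 of 83 higher in brain) and -0.21 between those of replicate 2 (15 of 83). It became 0.13 after the removal of GC content and length, against -0.28 for the mitochondrial genes. Median transcript length was 1324.5 bases for the proteasome genes, 1045 for the mitochondrial and 614 for the cytosolic ribosomal genes, against 2301 for all genes.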

How the data were processed

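RNA sequencing was done on 2 brain and 2 spleen libraries of human SEM cells with a stranded poly(A) kit, per the labels' protocols. The submitters' processing notes name kallisto 0.42.4, cutadapt 1.5, bcl2fastq 1.8.4 and DESeq2, and the builds GRCh38 and GRCm38, without roles. How strand was treated and which annotation was used is not stated in these sources. Per the values, the deposited gene table holds whole-number counts, without normalisation. With transcripts assigned by GENCODE release 44, 50.2% of genes over 50 counts equalled the sum of their transcripts' estimated counts within 1 count in all 4 libraries. In the transcript files the authors deposited estimated counts and TPM for 199596 human and 104229 mouse transcripts, scaled over both species. A table of regularised log2 values deposited by the authors was not used. The count table and that log2 table each have 1 column that matches no sample, 2 in all, which were not used.

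Symbols, positions and transcripts came from GENCODE release 44, which holds 56322 (86.4%) of the table's identifiers. For 45 of the 50 members the gene count equalled the transcript sum within 3 counts. The exceptions are PSMC6, PSMD13, PSME3IP1, PSMD8 and PSMB8, and the TPM of these is incomplete. Counts were tested with edgeR 4.0.16 in R 4.3.3 (quasi-likelihood test, robust, TMM factors, filterByExpr by group, Benjamini-Hochberg over 17075 genes, threshold 0.05). Levels are CPM with TMM factors, standard errors are those implied by the test, and intervals are 95%. The test was checked on simulated counts with planted changes larger than that of any member. That check does not cover changes of the members' size. TPM sums and ratios were compared by an exact permutation test over 4 libraries. GC content and length of the main transcript, the one of highest mean TPM, were removed by a spline offset per library with 5 degrees of freedom. Since reads carry no molecular identifiers, floors cover counting error only. The edgeR p-values rest on the spread between 2 libraries of pooled mice per site, combined with information on spread from all genes tested. With the block, that spread is what remains after the replicate numbers are fitted.

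Per the labels' treatment protocol the replicate numbers stand for separate occasions on which the experiment was done, so that a number pairs a brain with a spleen library. Deviations of same-numbered libraries correlated at 0.0269 (Pearson) and -0.0149 (Spearman) across genes. The blocked edgeR value stands beside a result where it changes the call. Other blocked fits are not printed gene by gene. DESeq2 with the block called 0 members (0.592% of all genes lower). The edgeR block after the GC and length removal called PSMB2 alone (1.04%).

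Members, classes and gene lists were chosen with earlier results of these data known. The rule named with all library values the called members, the 3 largest and 3 smallest fold changes, the catalytic subunits, PSME1, PSME2, members without counts and the 2 genes of highest TPM in each class. PSMB2, PSMC1 and PSMD13, as well as the pseudogene PSMC1P1, were added after their values were seen, as were members named with their fold change alone. The lists named of other genes POMP, ADRM1, SEM1, NFE2L1, DDI2, IRF1, NLRC5 and TAP1. MAFF, HLA-E and GBP2 were added because the block called them. Alternatives were other scale factors, DESeq2 1.42.0, other filters, transcript sums, the GC and length removal, the block and each library left out. RefSeq promoters were matched by symbol.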

Additional observations from a re-analysis of the deposited data

How the results depend on the processing

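The count of members called moved from 0 to 6 lower with DESeq2, 16 with no filter on low counts, 3 with the GC and length trend removed, 10 with the replicate block and 1 with the block and that removal. It stayed at 0 with other scale factors, a stricter filter, protein-coding genes alone, transcript sums and DESeq2 with the block, and ranged from 0 to 39 when single libraries were left out. For all genes the count of 345 moved to 957 with DESeq2, 2123 with no filter, 101 with the stricter filter, 201 with protein-coding genes alone, 570 with the GC and length trend removed, 1853 with the replicate block (1278 higher, 575 lower) and 701 with both, and to between 404 and 6807 when single libraries were left out. The split of 279 higher and 66 lower became 560 and 397 with DESeq2 and 3392 and 3415 without spleen replicate 1. The members' median of -0.38 ranged from -0.50 (without spleen replicate 1) to -0.32 (without spleen replicate 2), and to -0.30 with the GC and length trend removed. With single libraries left out, PSMD5 ranged from -0.152 to 0.0196, above 0 without brain replicate 2 or spleen replicate 2, and PSME4 from -0.0683 to 0.0575, below 0 without brain replicate 1 or spleen replicate 2. PSME4 also turned to -0.0189 with other scale factors, -0.0190 with DESeq2 and -0.0178 with DESeq2 and the block. PSMC1P1 no longer passed with the stricter filter (adjusted p = 0.0874, edgeR) or without brain replicate 2 (adjusted p = 0.133, edgeR). The summed levels moved when CPM per transcript length replaced TPM, to log2 differences of -0.44 (alpha ring), -0.54 (beta ring), -0.53 (ATPases), -0.36 (non-ATPases), -0.28 (base chaperones), -0.34 (activators), -0.28 (core chaperones), -0.29 (PSMC3IP and PSME3IP1, from 0.11), -0.48 (14 core genes) and -0.42 (all members). With TPM rescaled to human transcripts they were -0.18 for the non-ATPases, -0.33 for the 14 core genes and -0.27 for all members. The directions of the 3 catalytic ratios held under every alternative run. The cause of these moves was not tested. Summing identifier copies was not run, since the reference pairs each member's name with 1 identifier. The lowest count of a tested member was 519, and whether depth or the number of libraries limits the calls was not tested.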
